A study of Mus musculus with 2 samples.

Results

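The clustered protocadherin genes of the mouse lie side by side on chromosome 18 in 3 subclusters, *Pcdha*, *Pcdhb* and *Pcdhg*, and their DNA methylation was compared here between *Rex1*-high and *Rex1*-low embryonic stem cells (ESCs). Members were chosen by position alone: every CpG position listed between 37090001 and 38005000 of chromosome 18, with *Pcdha* from 37090001 to 37350000, *Pcdhb* from 37420001 to 37700000 and *Pcdhg* from 37800001 to 38005000. Positions are 1-based in mm9, the build named in the submitters' processing notes. Within these bounds lie 2778 of the 3911490 CpG positions that at least 1 library lists, and 1375 of the 1707425 with at least 5 calls in both, a call being the state of the CpG read once. The sequence between the subclusters, 70 kb and 100 kb long, was kept apart under its own name.

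The study sorted E14 ESCs of the 129/Ola background that carry the Rex1-dGFP knockin reporter, in which GFP reports on the naive pluripotency gene *Rex1*, into a *Rex1*-high and a *Rex1*-low population, both grown on gelatin with LIF and 10% serum. Reduced representation bisulfite sequencing (RRBS) was done on 1 library of each population. It cuts DNA at MspI and TaqI sites, size-selects the fragments and converts unmethylated cytosines with bisulfite, so that CpG-rich sequence is covered preferentially. Both populations come from a single reporter line, no expression was measured in these libraries, and with 1 library per population there is no replicate check, so that each test below compares 2 libraries and not 2 cell states.

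Clustered protocadherins are cell adhesion proteins of neurons that give each cell its own surface identity. In *Pcdha* and *Pcdhg*, each variable exon has its own promoter and is spliced to constant exons shared by the subcluster, whereas the *Pcdhb* genes are single coding exons without shared constant exons. Each neuron transcribes a small set of these genes, most of them chosen at random, and methylation of a promoter is known to keep it silent and to hinder binding of CTCF, the factor that brings promoters and distant enhancers together. The de novo methyltransferase Dnmt3b is known to methylate these promoters in the early embryo, before neurons form, and its gene is expressed in ESCs.

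In the RefSeq annotation of GRCm38.p6, a build other than that of the data and therefore used for names and order alone, 57 protein-coding symbols of the family follow each other. The 14 of *Pcdha* run from Pcdha1 to Pcdha12, followed by the C-type genes Pcdhac1 and Pcdhac2. The 22 of *Pcdhb* run from Pcdhb1 to Pcdhb22. The 21 of *Pcdhg* open with Pcdhga1, Pcdhga2 and Pcdhga3, go on with a mixture of A-type and B-type genes, and close with the C-type genes Pcdhgc3, Pcdhgc4 and Pcdhgc5. No mm9 annotation was at hand, so no stretch of sequence below is assigned to a single gene, and the bounds of the subclusters were taken as given.

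Coverage was uneven over the 915 kb. The *Rex1*-high library held 48978 calls at 2386 positions within the bounds, of 60718476 calls in all, and the *Rex1*-low library held 38752 at 2146 positions, of 61024229. A CpG kept in both libraries had a median of 29 calls in *Rex1*-high and 22 in *Rex1*-low. The sequence was divided into tiles of 2500 bp, and a tile was tested when at least 3 of its CpGs were kept in both libraries. This left 100 of 366 tiles, with 23 of 104 in *Pcdha*, 26 of 112 in *Pcdhb* and 42 of 82 in *Pcdhg*. *Pcdhg* thus contributed 774 of the 1375 CpGs, against 260 from *Pcdha* and 262 from *Pcdhb*.

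Methylation was higher in *Rex1*-low than in *Rex1*-high in all 3 subclusters. Averaged over CpGs, *Pcdha* had a methylation level of 35.5% in *Rex1*-high and 52.2% in *Rex1*-low. *Pcdhb* had 34.9% and 56.1%. *Pcdhg* had 26.2% and 39.4%, the lowest level of the 3 in both libraries. The increase was therefore 16.7 percentage points in *Pcdha*, 21.2 points in *Pcdhb* and 13.2 points in *Pcdhg*. Over all CpGs of the genome the levels were 39.2% and 54.2%, an increase of 14.96 points, so the mean gain over the 3 subclusters and the sequence between them, 16.0 points, was close to it by this average, from a lower starting level of 30.9%. The rank of *Pcdhg* depended on CpG number. By tile medians it was lowest in both libraries only among tiles with 10 to 19 CpGs, at 25.1% and 37.3%. With 5 to 9 CpGs it had 70.7% in *Rex1*-low, against 69.6% in *Pcdha* and 59.8% in *Pcdhb*.

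Pooled calls gave the counting error of these levels. In *Rex1*-high, 33.7% of the *Pcdha* calls were methylated (95% Wilson interval 32.6% to 34.8%), 34.5% of the *Pcdhb* calls (33.5% to 35.5%) and 28.2% of the *Pcdhg* calls (27.7% to 28.8%). The first 2 intervals overlap and that of *Pcdhg* lies under both. In *Rex1*-low the pooled levels were 44.9% (43.6% to 46.1%), 57.3% (56.1% to 58.6%) and 41.7% (41.1% to 42.4%), and no interval overlaps another. The pooled difference was 11.2 points in *Pcdha* (95% Newcombe interval 9.51 to 12.8), 22.8 points in *Pcdhb* (21.2 to 24.4) and 13.5 points in *Pcdhg* (12.6 to 14.4). Over the whole stretch the pooled level went from 31.4% to 46.3%, a difference of 14.9 points, whereas that of the genome went from 36.5% to 41.6%, a difference of 5.05 points. The gain was thus close to the genome's as a mean over CpGs and larger than it in pooled calls. *Pcdhb* gained most by either average, whereas the order of the other 2 depended on it. These intervals take in counting error alone, because neighbouring calls on a read and PCR copies are not independent. Tiles of 20 or more CpGs held 129 of 260 CpGs in *Pcdha*, 24 of 262 in *Pcdhb* and 516 of 774 in *Pcdhg*. In the order *Pcdha*, *Pcdhb*, *Pcdhg*, the median tile gain was 23.7, 36.1 and 32.8 points at 3 to 4 CpGs. At 5 to 9 CpGs it was 21.5, 19.3 and 25.4 points, and at 10 to 19 it was 26.4, 23.0 and 12.7. At 20 to 39 CpGs it was 12.5, 19.9 (1 tile) and 12.9 points, so *Pcdhb* did not lead in every class.

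**Figure D1:**
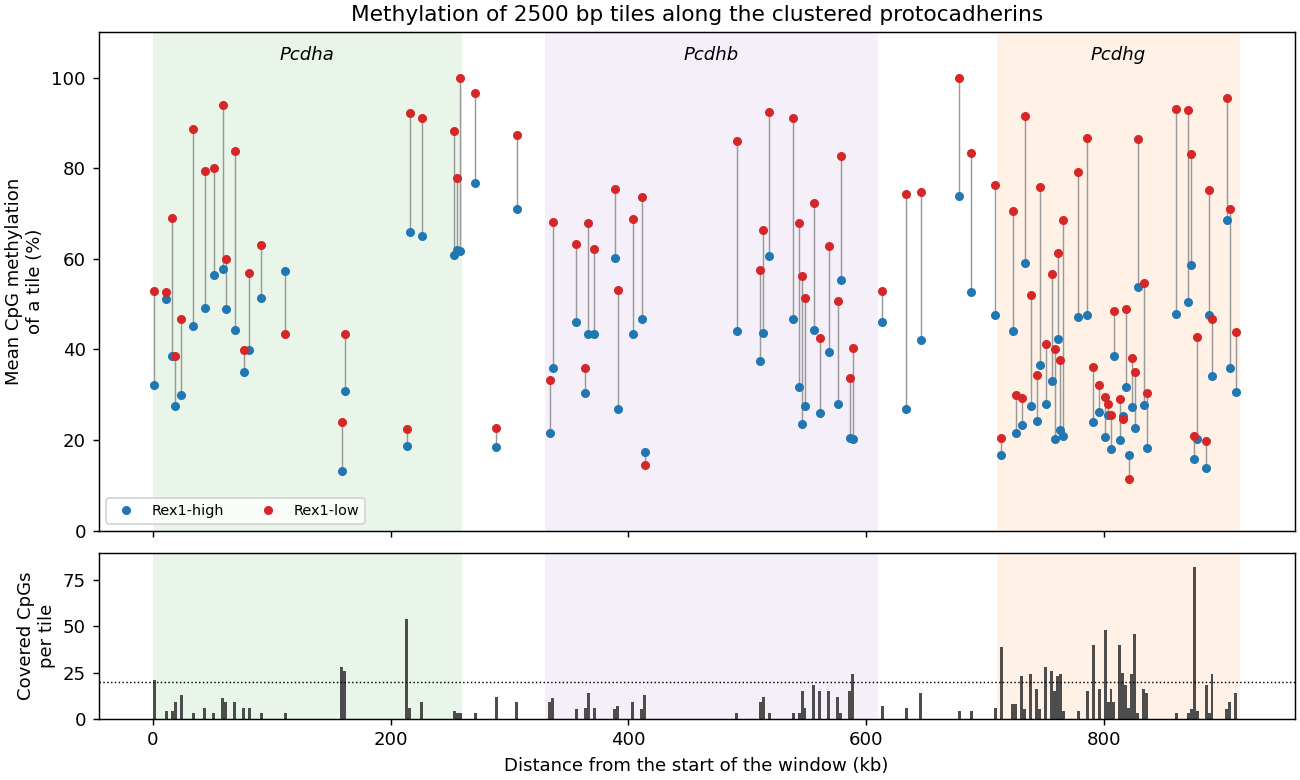
Methylation along the clustered protocadherins. The upper axis shows the mean CpG methylation (%) of each tested 2500 bp tile in the *Rex1*-high library (blue) and the *Rex1*-low library (red), joined by a line, against the distance in kb from the start of the bounds, and the lower axis shows the covered CpGs per tile with a dotted line at 20. Red lies above blue in 96 of 100 tiles, and the tiles with 20 or more CpGs sit mostly in *Pcdhg*.

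Tile by tile, the *Rex1*-low library was higher in 96 of the 100 tiles. The summed calls of each tile were compared by Fisher's exact test, two-sided, and p was adjusted by the Benjamini-Hochberg method over every tile of the genome. A tile was called when the adjusted p was under 0.05 and the mean level moved by 10 points or more, and 73 tiles were called more methylated in *Rex1*-low. Of all 162599 tiles of the genome 75.5% were called in this direction, so the share of called tiles was near the background. None of the 100 was called less methylated, and 0.0326% of the genome's tiles were. The 4 tiles that were lower in *Rex1*-low without passing the test start at 37200001 in *Pcdha*, at 37502501 in *Pcdhb* and at 37905001 and 37910001 in *Pcdhg*. The called tiles were 15 of 23 in *Pcdha*, 22 of 26 in *Pcdhb* and 29 of 42 in *Pcdhg*. The median tile went from 48.8% to 63.1% in *Pcdha*, from 38.4% to 63.0% in *Pcdhb* and from 27.4% to 43.3% in *Pcdhg*, against 57.3% and 85.1% genome-wide. Tiles at or above 50% were 22 of 100 in *Rex1*-high and 61 in *Rex1*-low, whereas genome-wide they made up 66.3% and 84.7%.

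Tiles in the following are taken from those with 10 or more CpGs and, in both libraries, 100 or more calls. Of the genome's tiles that met these minimums 47.1% were called, from 76.2% with 10 to 19 CpGs to 2.35% with 40 or more when all tiles of these classes were counted. In *Pcdha* there were 6 of them, and 5 were called, namely 2 of 2 with 10 to 19 CpGs, 3 of 3 with 20 to 39 and 0 of 1 with 40 or more. The 11 CpGs at 37147501 to 37150000 showed the largest increase, from 57.7% to 93.8%. Methylated calls were 152 of 260 in *Rex1*-high (95% Wilson interval 52.4% to 64.3%) and 138 of 148 in *Rex1*-low (88.0% to 96.3%; Fisher's exact test, adjusted p = 3.51e-14). In *Rex1*-low, 10 of its 11 CpGs were at or above 80%. The tile at the very start of the subcluster, 37090001 to 37092500, rose from 32.2% to 52.9% over 21 CpGs, and the tile at 37112501 to 37115000 rose from 29.9% to 46.6% over 13 CpGs. Both stayed far from full methylation, with 4 and 2 CpGs at or above 80%. The order of these tiles depended on the minimum. With at least 10 calls per line the increase was 30.8 points at 37112501 and 22.4 points at 37147501, and with at least 20 calls the change at 37112501 was 4.36 points and was not called.

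The CpG-richest of these *Pcdha* tiles, 37302501 to 37305000, was also the least methylated in *Rex1*-low and the least changed. Its mean over 54 CpGs was 18.8% in *Rex1*-high and 22.5% in *Rex1*-low, a change under 10 points (Fisher's exact test, adjusted p = 0.0359). Its median CpG was at 2.08% and 3.51%, and 36 of the 54 CpGs were at or below 20% in *Rex1*-low. Farther towards the start, the tile at 37247501 to 37250000 went from 13.3% to 24.0% over 28 CpGs, just over the threshold of 10 points, and fell short of it under 6 alternatives.

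In *Pcdhb*, 10 of 11 such tiles were called, and 10 of the 11 had 10 to 19 CpGs, a class in which 76.2% of the genome's tiles were called. The largest increases were at 37635001 to 37637500, from 23.6% to 56.2% over 15 CpGs, at 37425001 to 37427500, from 36.0% to 68.1% over 11 CpGs, and at 37645001 to 37647500, from 44.4% to 72.3% over 18 CpGs. In the first of these, 170 of 613 calls were methylated in *Rex1*-high (24.3% to 31.4%) and 196 of 311 in *Rex1*-low (57.5% to 68.2%; Fisher's exact test, adjusted p = 3.82e-23). Every CpG of these 3 tiles was higher in *Rex1*-low, 15 of 15, 11 of 11 and 18 of 18. Even so, only 4, 3 and 8 of them were at or above 80% there.

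The tile with most CpGs in *Pcdhb*, at 37677501 to 37680000, rose from 20.3% to 40.2% over 24 CpGs, 23 of which were higher in *Rex1*-low. Its neighbour at 37675001 to 37677500 rose less, from 20.6% to 33.7% over 15 CpGs (Fisher's exact test, adjusted p = 0.00156), and was not called weighted by calls, at 8.89 points, or with at least 20 calls per line, at 11.2 points. The exception was the tile at 37502501 to 37505000, with 17.4% in *Rex1*-high and 14.4% in *Rex1*-low over 13 CpGs. There 58 of 305 calls (15.01% to 23.8%) and 36 of 199 calls (13.4% to 24.0%) were methylated, intervals that overlap (Fisher's exact test, adjusted p = 0.832). Its difference had the other sign with at least 10 calls per line, at 6.83 points, and without CpGs whose lines were unlike, at 2.10 points.

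In *Pcdhg*, 16 of 25 such tiles were called, each with an increase. They were 7 of 10 with 10 to 19 CpGs, 7 of 10 with 20 to 39 and 2 of 5 with 40 or more. It was largest at 37875001 to 37877500, where the mean of 15 CpGs rose from 47.6% to 86.6%. Methylated calls there were 339 of 663 in *Rex1*-high (47.3% to 54.9%) and 544 of 637 in *Rex1*-low (82.4% to 87.9%; Fisher's exact test, adjusted p = 6.94e-39). All 15 CpGs were higher in *Rex1*-low, and 12 were at or above 80%. Next came 37922501 to 37925000, from 27.7% to 54.7% over 16 CpGs, and 37827501 to 37830000, from 27.6% to 52.1% over 24 CpGs. With at least 20 calls per line the increase was 46.96 points at 37922501 and 38.99 points at 37875001, so the order of these tiles too depended on the minimum. The tile at 37827501 was a mixture in *Rex1*-low, with 6 CpGs at or above 80% and 6 at or below 20%.

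The CpG-richest tile, 37965001 to 37967500, held 82 CpGs at a mean of 15.7% in *Rex1*-high and 21.0% in *Rex1*-low. The pooled calls, 481 of 2531 (17.5% to 20.6%) and 689 of 2608 (24.8% to 28.1%), differed (Fisher's exact test, adjusted p = 1.73e-09), but the change in mean level was under 10 points. With at least 20 calls per line it was 14.3 points and was called. Its median CpG was at 3.798% and 7.77%. The lowest *Rex1*-low level among these tiles was at 37975001 to 37977500, with 13.8% and 19.7% over 18 CpGs. Little difference was measured at the start of the subcluster, at 37802501 to 37805000, where 39 CpGs averaged 16.6% and 20.5% (Fisher's exact test, adjusted p = 0.219), and at 37905001 to 37907500, where 25 CpGs averaged 25.2% and 24.7% (adjusted p = 0.255). The sign of the last difference turned under 5 alternatives, up to 14.1 points with at least 10 calls per line.

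**Figure D2:**
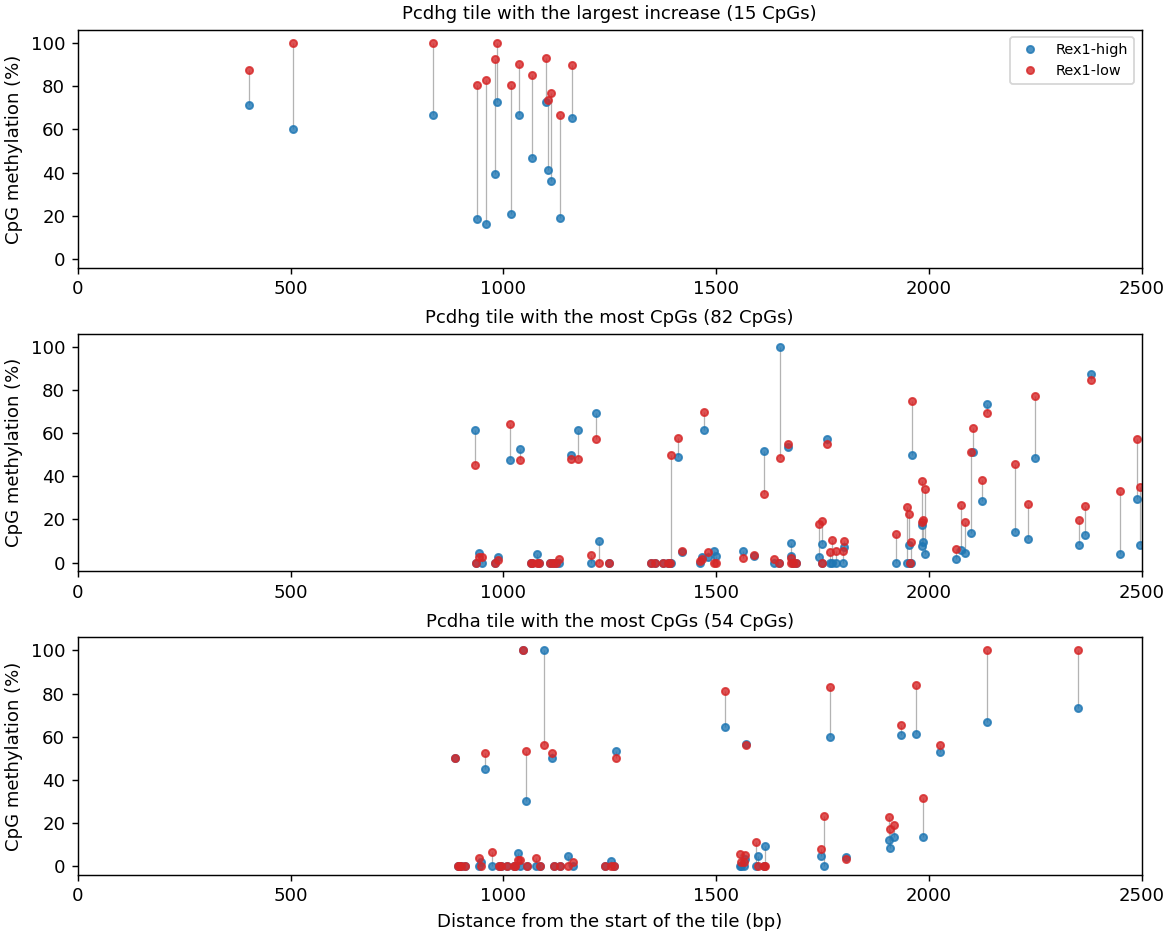
Single CpGs of 3 tiles. Each point is the methylation (%) of a CpG in the *Rex1*-high (blue) or *Rex1*-low (red) library, joined by a line, against the distance in bp from the start of the tile. In the *Pcdhg* tile with the largest increase among tiles with 10 or more CpGs, all 15 CpGs are higher in *Rex1*-low. In the CpG-richest tiles of *Pcdhg* and *Pcdha*, most CpGs are at or below 20% in both libraries, beside scattered CpGs near 50%.

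Levels differed with how many kept CpGs a tile held. Tiles were sorted by the number of CpGs kept in both libraries, a measure that the choice of members did not use. It counts covered CpGs and not every CpG of the sequence. The 24 tiles with 3 to 4 CpGs had median levels of 51.2% in *Rex1*-high and 83.1% in *Rex1*-low, the 32 tiles with 5 to 9 CpGs had 43.5% and 66.0%, and the 24 tiles with 10 to 19 CpGs had 27.8% and 47.8%. The 14 tiles with 20 to 39 CpGs had 27.4% and 40.7%, and the 6 tiles with 40 or more had 20.4% and 29.2%. Genome-wide the same 5 classes had 61.5% and 88.3%, 57.9% and 85.6%, 47.3% and 76.2%, 17.7% and 21.4%, and 12.2% and 13.7%. Protocadherin tiles were thus under the genome's medians in the 3 sparser classes and above them in the 2 denser classes, in both libraries.

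Called tiles were set beside the genome in the same classes. Of the protocadherin tiles 19 of 24, 22 of 32 and 19 of 24 were called in the 3 sparser classes, where 77.9%, 88.5% and 76.2% of the genome's tiles were called. In the denser classes 11 of 14 and 2 of 6 were called, where 24.4% and 2.35% of the genome's tiles were. The share of called tiles was thus above the genome's in the denser classes, under it at 5 to 9 CpGs and near it in the other sparse classes. Across the 100 tiles, Spearman's rho between CpG number and level was -0.664 in *Rex1*-high and -0.671 in *Rex1*-low, against -0.452 and -0.457 over all tiles. Within subclusters it was -0.616 and -0.422 in *Pcdha*, -0.609 and -0.565 in *Pcdhb*, and -0.512 and -0.611 in *Pcdhg*, so that in *Pcdha* the *Rex1*-low value was weaker than the genome's. Neighbouring tiles share libraries and fragments, so this is a description.

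**Figure D3:**
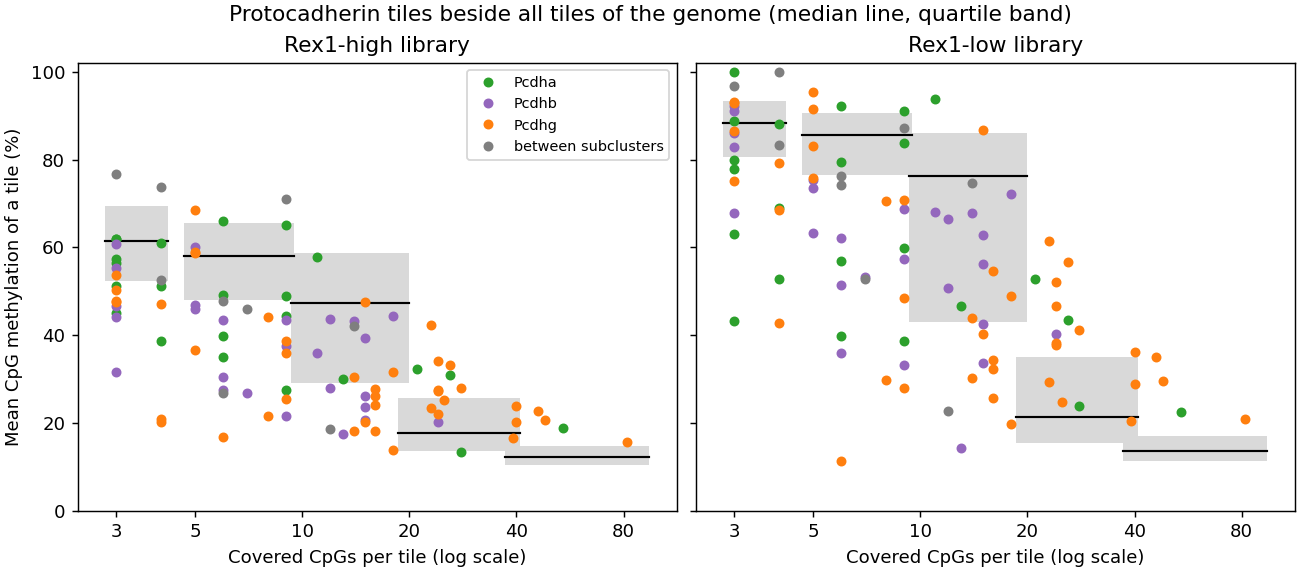
Tile methylation against CpG number. Each point is a protocadherin tile, coloured by subcluster, with the covered CpGs per tile on a log axis and the mean CpG methylation (%) on the other. The line and band give the median and quartiles of all tiles of the genome in the same class of CpG number, and the points lie mostly under the band at 5 to 9 CpGs and mostly above the line from 20 CpGs on.

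The CpG-dense tiles, with 20 or more kept CpGs, were 4 in *Pcdha*, 1 in *Pcdhb* and 15 in *Pcdhg*. Their levels ran from 13.3% to 42.3% in *Rex1*-high, with a median of 23.6%, and from 20.5% to 61.4% in *Rex1*-low, with a median of 37.0%. The 14791 tiles of the genome with 20 or more CpGs had medians of 14.2% and 16.3%. The 4 tiles of *Pcdha* had medians of 24.8% and 33.7%, the tile of *Pcdhb* had 20.3% and 40.2%, and the 15 of *Pcdhg* had 23.9% and 36.1%. Altogether 13 of the 20 were called, where 13.4% of such tiles were called genome-wide.

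Within *Pcdhg*, 4 CpG-dense tiles lay close together between 37840001 and 37855000. They rose from 28.05% to 41.2% at 37840001, from 33.1% to 56.7% at 37845001, from 42.3% to 61.4% at 37850001 and from 22.1% to 37.8% at 37852501. The third of these had the highest level of all 20 in both libraries. They were chosen after their values were seen.

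Since classes of CpG number are broad, each tile was also set beside the tiles of the genome whose CpG number was within 10% of its own. Of the 20 CpG-dense tiles, 19 lay above the median of those tiles in *Rex1*-high and 20 in *Rex1*-low, and 19 had a larger gain than their median. Of the 56 tiles with 3 to 9 CpGs, 8 lay above that median in *Rex1*-high and 14 in *Rex1*-low, whereas 33 and 34 lay under the 25th percentile. Their gains were not placed as low, with 31 of 56 above the median gain. Of the 24 tiles with 10 to 19 CpGs, 4 lay above the median level in *Rex1*-high and 5 in *Rex1*-low, and 10 lay above the median gain. The median percentile of the CpG-dense tiles was 80.1 in *Rex1*-high and 78.5 in *Rex1*-low, and that of the tiles with 3 to 9 CpGs was 19.4 and 20.5.

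**Figure D4:**
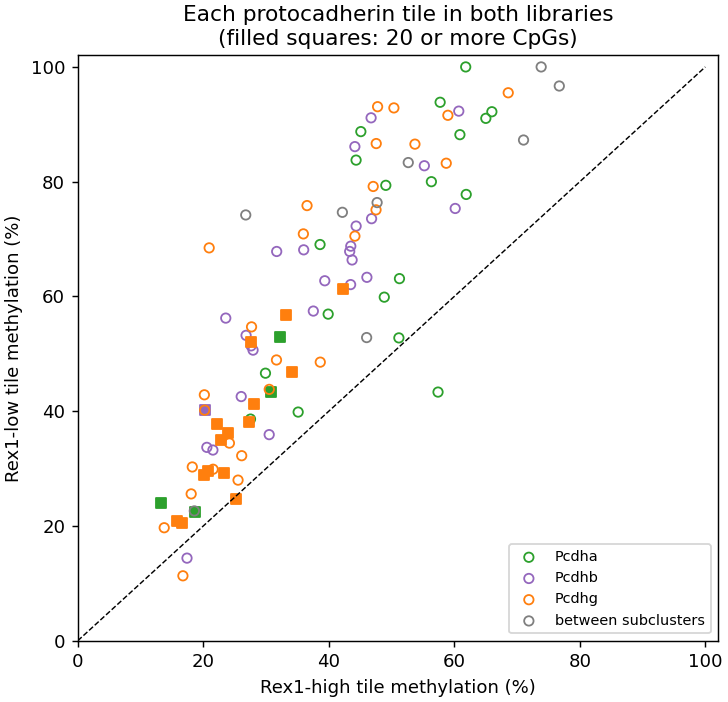
Each tested protocadherin tile by its mean CpG methylation (%) in the *Rex1*-high library, on the horizontal axis, and in the *Rex1*-low library, on the vertical axis. Colours mark subclusters, filled squares mark tiles with 20 or more CpGs, and the dashed line marks equal levels. Of the 20 filled squares 19 lie above the line, at *Rex1*-low levels from 20.5% to 61.4%.

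Some CpGs had lines that disagreed. A position has 1 or 2 lines of calls in each library, with no strand named, and the level of a CpG is the mean of its kept lines. A line at or above 80% beside another at or below 20% was found in at least 1 library at 12.2% of the protocadherin CpGs, against 8.84% genome-wide. In CpG-dense tiles the shares were 10.8% and 10.3%, and outside them 13.6% and 7.81%. Such CpGs have a mean near 50% and lift the mean of a tile whose other CpGs are near 0. Without them, the CpG-dense tiles had medians of 19.2% and 33.5%, against 8.89% and 10.6% genome-wide. With the median CpG of each tile in place of the mean, the 20 tiles had 8.53% and 28.4%, against 0% and 0.962% genome-wide. By either of these averages at least 18 of the 20 tiles were above the median of the tiles of like CpG number in both libraries.

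Single CpGs were sorted into low, at or below 20%, intermediate, and high, at or above 80%. In *Rex1*-high, 50.6% of the 1375 CpGs were low, 43.9% intermediate and 5.53% high. In *Rex1*-low, 33.9% were low, 39.8% intermediate and 26.3% high. Genome-wide 38.8%, 49.4% and 11.8% became 34.2%, 23.9% and 41.9%. The intermediate share of the *Rex1*-low library was 46.9% in *Pcdhb*, 39.3% in *Pcdhg* and 36.9% in *Pcdha*, each above the genome's share.

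The CpGs that were low in *Rex1*-high were followed into *Rex1*-low. Of the 696 such CpGs 450 (64.7%) were also low in *Rex1*-low, 228 were intermediate and 18 were high, whereas genome-wide 86.4% of them were also low. The share that was also low was 70.4% in *Pcdhg*, 61.3% in *Pcdha* and 47.4% in *Pcdhb*. Within CpG-dense tiles it was 72.2%, or 307 of 425, against 95.7% genome-wide, whereas in the other tested tiles it was 53.4% against 52.2%. Of the CpGs that were intermediate in *Rex1*-high, 46.6% were high in *Rex1*-low, against 61.1% genome-wide. In CpG-dense tiles this share was 30.6% against 21.7%, and in the other tested tiles 53.2% against 68.3%. These differences between shares were not tested.

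**Figure D5:**
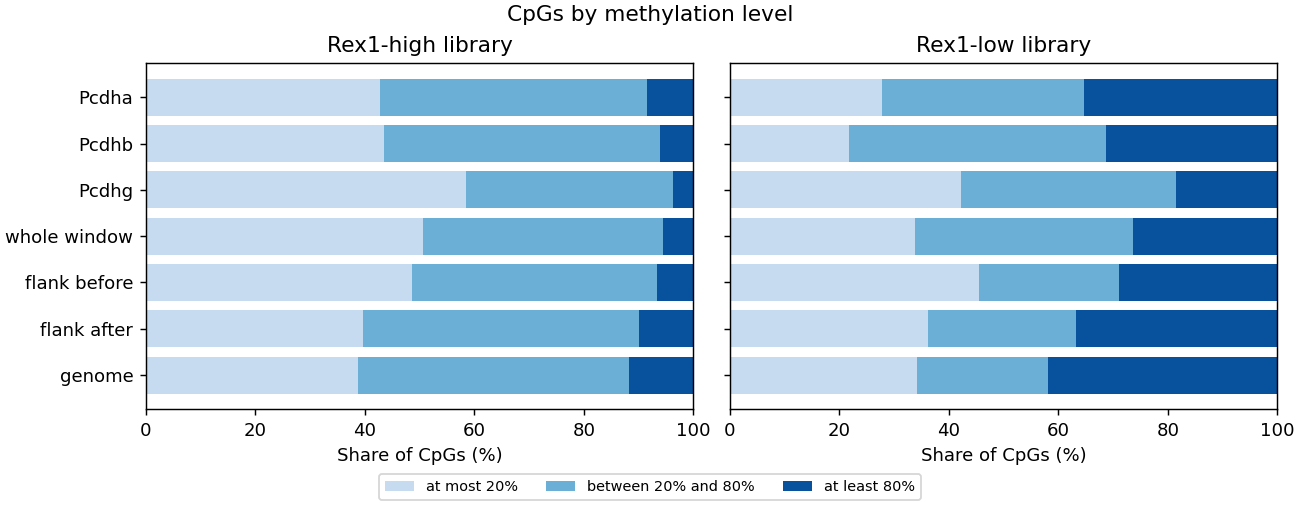
Shares of CpGs (%) at or below 20%, between 20% and 80%, and at or above 80% methylation in each library, for the 3 subclusters, the whole stretch from *Pcdha* to *Pcdhg*, the 500 kb on each side of it and the genome. The intermediate share of the whole stretch is 43.9% in *Rex1*-high and 39.8% in *Rex1*-low, whereas that of the genome is 49.4% and 23.9%.

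For single CpGs, Fisher's exact test was adjusted over every CpG of the genome and called at an adjusted p under 0.05. In this way 196 of the 1375 CpGs were called more methylated in *Rex1*-low, where 12.5% of the genome's CpGs were. They were 29 of 260 in *Pcdha*, 56 of 262 in *Pcdhb* and 96 of 774 in *Pcdhg*. In each subcluster, the called CpG with the largest increase among those with at least 20 calls per library went from 12.8% to 79.8% at 37645899 in *Pcdhb* (adjusted p = 9.54e-06), from 16.4% to 82.9% at 37875961 in *Pcdhg* (adjusted p = 1.22e-05) and from 32.5% to 86.4% at 37316092 in *Pcdha* (adjusted p = 0.0115), all by this exact test. The calls behind them were 7 of 53 and 21 of 27, 6 of 37 and 26 of 31, and 8 of 23 and 19 of 22.

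Of the 1375 CpGs, 4 (0.291%) were called less methylated, near the 0.239% of the genome's CpGs. All 4 are named here, of which the last and the one at 37911528 were chosen after their values were seen. The CpG at 37602094 in *Pcdhb* averaged 60.3% and 57.1% over its lines, which were unlike, whereas its pooled calls went the other way, from 30 of 53 to 36 of 42. At 37966176 in *Pcdhg* the calls went from 15 of 25 to 15 of 56, with unlike lines, and it was not called with no minimum, at -13.7 points as before, with lines summed, at -33.2 points, or with the deeper library thinned, at -32 points. At 37911528 they went from 35 of 64 to 0 of 14, which allows a share of up to 21.4%, again with unlike lines and with only 1 of them kept in *Rex1*-low. The fourth, at 37735499 between *Pcdhb* and *Pcdhg*, went from 8 of 32 to 0 of 47, which allows a share of up to 6.38%, and its lines were not unlike.

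The sequence around the subclusters was measured in the same way. Between *Pcdhb* and *Pcdhg*, 48 CpGs averaged 48.1% and 77.4%. The only tile there with 10 or more CpGs, at 37735001 to 37737500, rose from 42.2% to 74.7% over 14 CpGs (Fisher's exact test, adjusted p = 2.87e-19). The tile at 37722501 to 37725000, with 6 CpGs, rose more, from 26.8% to 74.2% (Fisher's exact test, adjusted p = 1.31e-09). Between *Pcdha* and *Pcdhb*, 31 CpGs averaged 48.9% and 64.9%, and the tile at 37377501 to 37380000 had 18.6% and 22.6% over 12 CpGs (Fisher's exact test, adjusted p = 0.0857), though it was called with at least 20 calls per line, at 12.9 points. In the 500 kb before *Pcdha*, 517 CpGs averaged 31.3% and 43.0%, and in the 500 kb after *Pcdhg*, 933 CpGs averaged 37.8% and 51.3%. The flanks held 17 CpG-dense tiles with medians of 14.5% and 16.0%, of which 1 was called, against 13 of the 20 in the subclusters. With 1 library per population this contrast was not tested.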

How the data were processed

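RRBS was measured in 1 *Rex1*-high and 1 *Rex1*-low library. The submitters' processing notes name Bismark 0.7 and mm9, and the methods name Galaxy. Trimming and strand handling are not given in the sources used here. The deposited values are other than a standard unit: methylated calls over all calls per line, as text, with a deposited score of 1000 times their ratio, used to check the calls. Lines under 5 calls were dropped, the fraction of a CpG was the mean of its kept lines, and tiles and CpGs were compared by Fisher's exact test (two-sided, Benjamini-Hochberg adjustment over the genome), after a check on simulated data. The members, lists and tests were chosen with earlier results of these data known. Among tiles with 10 or more CpGs and 100 or more calls per library, those named in each subcluster were chosen for the 3 largest increases, the 2 smallest changes, the most CpGs and the lowest *Rex1*-low level (between subclusters, the largest increase and smallest change). CpGs with 20 or more calls per library are named for the largest called change each way. Alternatives varied the call and CpG minimum, averaging, lines, depth, tile grid, test and thresholds. Sequences of this chromosome are not reported here. Computation used SciPy 1.17.1, numba 0.67.0, pandas 2.3.3, NumPy 2.4.6 and matplotlib 3.10.9 under Python 3.11.15.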

Additional observations from a re-analysis of the deposited data

How the results depend on the processing

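No paired analysis was possible because each state has 1 library. Of 76 values recomputed for 7 results, 45 stayed within 1.5 times (counts) or the counting interval (levels and differences). None of the recomputed subcluster differences changed sign, whereas the counts and levels have no sign to change.

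The increase in *Pcdha*, *Pcdhb* and *Pcdhg* was 12.3, 24.6 and 15.6 points with at least 20 calls per line, 13.2, 16.8 and 11.3 points with no minimum, 19.3, 23.2 and 18.7 points as a mean over tiles, and 24.998, 29.3 and 17.9 points between medians over CpGs. In *Pcdha* it was 14.5 points with at least 10 calls and 11.2 points weighted by calls, in *Pcdhb* 22.8 points weighted by calls, and in *Pcdhg* 14.1 points with the deeper library thinned. *Pcdhb* gained most in each of these, none of which compared tiles of like CpG number.

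The 73 called tiles became 31 of 45 tested (68.9%, genome 55.9%) with at least 20 calls, 32 of 44 (72.7%, genome 47.2%) with at least 10 CpGs, 48 of 100 (genome 59.7%) with a change of at least 20 points and 24 of 100 (genome 26.7%) with at least 30 points. The called share thus lay above or under the genome's depending on the setting. The 196 called CpGs became 104 of 389 (26.7%, genome 19.3%) with at least 20 calls and 112 of 1375 (8.15%, genome 6.74%) after thinning. A test stratified by CpG (Cochran-Mantel-Haenszel) called 73 of 100 tiles, where 77.96% of the genome's were called.

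The medians of CpG-dense tiles in *Rex1*-high and *Rex1*-low were 16.7% and 25.1% with at least 20 calls (3 tiles), 18.6% and 30.8% with tiles of 1000 bp, and 20.4% and 29.2% from 40 CpGs on. The *Rex1*-low median was 41.4% with at least 10 calls and 31.1% with a shifted tile grid, and the *Rex1*-high median was 19.2% without CpGs of unlike lines. The cause of these shifts was not tested.

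Of 184 values for named tiles and CpGs, 159 kept both their call and their sign. No value could be had with at least 20 calls at 37147501, 37502501 and the CpGs 37316092 and 37966176, which lacked the calls, nor without unlike lines at the CpGs 37602094 and 37966176. Signs turned at 37502501 (6.83 points with at least 10 calls, 2.10 without unlike lines), at 37905001 (14.1 points with at least 10 calls, 0.307 with no minimum, 4.66 with lines summed, 3.54 weighted by calls, 3.78 thinned) and at the CpG 37602094 (39.7 points with at least 10 or 20 calls, 29.1 with lines summed, 28.6 thinned). With at least 20 calls, the differences of tiles with small changes were -7.49 points at 37905001, 6.03 at 37302501 and 1.67 at 37802501. Taking direction from pooled calls, an alternative added after seeing the data, as were the comparisons by like CpG number and without unlike lines genome-wide, gave 197 more and 3 less methylated CpGs.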

Other observations

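Levels also differed along each subcluster, in *Pcdha* and *Pcdhg* in an order that depended on the average. With each divided into 3 parts of about equal length, the first part of *Pcdha* averaged 40.3% in *Rex1*-high and 62.1% in *Rex1*-low over 105 CpGs, the middle part 29.3% and 42.8% over 70 CpGs, and the last part 34.9% and 47.8% over 85 CpGs. In pooled calls that last part had 34.7% and 37.7%, a much smaller difference. By the median of its tiles the last part was instead the highest, at 61.9% and 89.6%. The first part had 44.3% and 59.9% by this measure, and the middle part 41.1% and 43.3%. A single tile held 54 of the 85 CpGs of the last part. In *Pcdhb* the parts averaged 36.9% and 55.2%, 44.7% and 66.7%, and 31.3% and 54.4%, with 7 of 11, 3 of 3 and 12 of 12 tiles called. In *Pcdhg* the parts averaged 28.3% and 44.9%, 25.2% and 36.7%, and 25.1% and 36.8%, with 12 of 15, 8 of 16 and 9 of 11 tiles called. CpG-dense tiles were 7, 6 and 2 of these. Tile medians of the *Pcdhg* parts were 27.6% and 52.1%, 25.4% and 33.6%, and 35.9% and 70.9%, so the last was highest by this measure. In *Pcdha* 9 of 13, 2 of 4 and 4 of 6 were called, and of all tiles of the genome 75.5% were. The parts were drawn after seeing the data and no test was made.

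Some CpGs of the 3 subclusters and the sequence between them reached 5 calls in 1 library only. The 311 CpGs kept only in *Rex1*-high averaged 37.3% there, against 30.9% for those kept in both libraries, and genome-wide the levels were 51.1% and 39.2%. The 83 kept only in *Rex1*-low averaged 45.4%, against 46.9%, and genome-wide 53.0% against 54.2%. The subclusters differed here, with 30.1% over 22 CpGs in *Pcdha* against 52.2% for those kept in both, 59.0% over 19 CpGs in *Pcdhb* against 56.1%, and 43.5% over 37 CpGs in *Pcdhg* against 39.4%. In *Pcdhg* the 91 CpGs kept only in *Rex1*-high averaged 23.4% with a median of 19 calls.

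The odds of a call being methylated, compared CpG by CpG within a tile, were higher in *Rex1*-low by a median ratio of 3.05 in *Pcdha*, 4.58 in *Pcdhb* and 3.32 in *Pcdhg*, against 4.89 over all tiles of the genome. By CpG number, the median of the protocadherin tiles was 6.26 with 3 to 4 CpGs, 3.97 with 5 to 9, 4.17 with 10 to 19, 2.59 with 20 to 39 and 2.57 with 40 or more, against 5.66, 5.24, 4.26, 1.90 and 1.55 genome-wide. With 3 to 4 CpGs, 13 of 24 tiles had a ratio above the genome's median, and *Pcdha* had a median of 2.72 with 2 of 9 tiles above. The tiles at 37347501 in *Pcdha* and at 37767501 had no finite ratio, since all their *Rex1*-low calls were methylated, 18 of 18 and 30 of 30. They enter neither the medians nor the tiles counted as above.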
